A study of Mus musculus with 5 samples.

Results

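Wfdc2, Msln, Slpi, Lcn2, Clu and Spp1 encode proteins that carcinoma cells secrete or shed, and they were followed in 4T1 cancer cells growing in mouse lung. They are 6 of the 23771 genes in a deposited table that compares cancer cells of a lung primed with tumor-secreted factors (TSF) with those of a lung given control medium (CM). The genes were chosen by name, with their values in this table known. The comparison below is therefore a description, and no test was made. 4T1 is a mouse mammary carcinoma line, and the injected cells carried CD90.1, a Thy1 variant that serves as a reporter. Female BALB/c mice were injected by vein 3 times a week for 3 weeks with CM or with TSF, the medium in which fragments of 4T1 tumors had been kept. All mice were then given 25000 CD90.1-expressing 4T1 cells by vein. Only the lungs of day 16 after that injection (metastatic colonization, mice of 11 weeks) have cancer cell expression values in the table, with 1 library for TSF and 1 for CM. Each library pooled cells from the lungs of 3 mice, so the spread between mice was not measured and neither group has a replicate.

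Wfdc2 (also called HE4) and Slpi belong to the whey acidic protein (WAP) four-disulfide family, small cysteine-rich proteins of epithelial secretions. Slpi inhibits serine proteases such as neutrophil elastase. Lcn2 is a lipocalin that binds bacterial siderophores, the molecules with which bacteria take up iron, and it is made by neutrophils as well as by stressed epithelium. Clu (clusterin) is an extracellular chaperone. Spp1 (osteopontin) is a phosphoprotein of the SIBLING family (small integrin-binding ligand, N-linked glycoproteins) that binds integrins and CD44. Msln (mesothelin) sits on the cell surface through a lipid anchor, its precursor also releases a soluble part, and it marks mesothelium and several carcinomas. Human forms of Wfdc2 and Msln are used as serum markers of carcinoma.

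On the GRCm38 genome, with genes matched by identifier to GENCODE M21, 3 of the 6 genes lie on chromosome 2. Wfdc2 (ENSMUSG00000017723) spans 164562413 to 164568510 on the plus strand, with 5 exons in its principal transcript. Slpi (ENSMUSG00000017002) spans 164354070 to 164389095 on the minus strand, with 4 exons in its principal transcript, which starts 206 kb from that of Wfdc2. Lcn2 (ENSMUSG00000026822) lies elsewhere on that chromosome, at 32384633 to 32388252 on the minus strand. Clu (ENSMUSG00000022037) is on chromosome 14 at 65968483 to 65981547, plus strand. Spp1 (ENSMUSG00000029304) is on chromosome 5 at 104435118 to 104441050, plus strand, and Msln (ENSMUSG00000063011) is on chromosome 17 at 25748613 to 25754378, minus strand.

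RefSeq promoter windows on GRCm38.p6 were matched by symbol for 4 of the 6 genes, Wfdc2, Slpi, Lcn2 and Spp1. The sequences are shown as background, and whether any motif in them bears on the levels was not tested. Each line gives bases before the RefSeq start, 5′ to 3′ on the gene's strand, cut where the principal GENCODE transcript begins. Capitals mark TTGCNNAA on either strand, the core that C/EBP transcription factors bind. The stretch of Wfdc2 overlaps an exon of another Wfdc2 transcript, and that of Lcn2 an exon of another Lcn2 transcript.
Wfdc2, chr2:164562465-164562578, plus strand: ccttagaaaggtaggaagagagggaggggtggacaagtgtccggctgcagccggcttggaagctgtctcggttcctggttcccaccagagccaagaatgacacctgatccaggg
Slpi, chr2:164356508-164356757, minus strand: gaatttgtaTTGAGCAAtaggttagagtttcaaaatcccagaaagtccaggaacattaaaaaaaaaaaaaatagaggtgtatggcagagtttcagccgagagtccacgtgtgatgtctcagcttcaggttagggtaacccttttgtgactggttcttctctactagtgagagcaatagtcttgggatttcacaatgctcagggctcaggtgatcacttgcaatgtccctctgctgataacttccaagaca
Lcn2, chr2:32387798-32387989, minus strand: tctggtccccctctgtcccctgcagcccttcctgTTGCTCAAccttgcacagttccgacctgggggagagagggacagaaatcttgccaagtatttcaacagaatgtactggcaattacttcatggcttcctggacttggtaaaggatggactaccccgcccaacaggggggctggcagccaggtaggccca
Spp1, chr5:104434861-104435110, plus strand: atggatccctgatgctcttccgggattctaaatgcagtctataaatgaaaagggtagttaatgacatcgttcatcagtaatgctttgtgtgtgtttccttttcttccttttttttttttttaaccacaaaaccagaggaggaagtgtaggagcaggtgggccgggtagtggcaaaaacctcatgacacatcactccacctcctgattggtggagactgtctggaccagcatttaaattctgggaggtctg

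The match began 216 bases before the RefSeq start of Lcn2 and 241 bases before that of Slpi. A second RefSeq start of Spp1, at which the window is not printed, had one 156 bases before it. TTGCNNAA occurs in 9.56% of 32851 mouse windows of 250 bases. The looser form TTNNGNAA, which overlaps it, was in windows of all 4 genes and in 36.8% of all windows. In Wfdc2 it lay after the printed stretch, and in Spp1 it was in the window of the second start. Of the other motifs searched on both strands, TATAAA (12.4% of all windows) and CGGAAG, an ETS core (13.6%), were in the printed Spp1 window only. The NF-kB core GGNNNTTCC (15.7% of all windows) and so the longer NF-kB forms that contain it (1.41% and 4.65%) were in no window of these genes. The AP-1 motif TGANTCA (6.75%) was in none either. These are matches of letters, and binding was not measured.

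The authors assigned 139 cells of the TSF library and 29 cells of the CM library to the cancer class. These cells held a median of 26615 and 27679 unique molecular identifiers (UMIs, each counting 1 captured transcript end). In the TSF library 14 cancer cells (10.1%) and in the CM library 8 cancer cells (27.6%) had under 10000 UMIs. No cell barcode was shared between the cancer cells of the libraries, and all cells shared 31. The cancer cells carried the keratins of simple epithelium, given here as CP10k, the UMIs of a gene among 10000 of a cell. The mean Krt8 level was 11.1 CP10k in TSF and 10.3 CP10k in CM, and that of Krt18 was 15.8 and 18.3 CP10k. Of 8 epithelial markers, these keratins among them, 5 differed less than 2-fold and 3 were at least 2-fold higher in TSF. The 3 were Epcam (95 of 139 TSF and 8 of 29 CM cells), Cldn4 (25 and 3 cells) and Cdh1 (35 and 2 cells). The cancer class is made of the authors' clusters 120 and 131, and cluster 120 held 85 of 139 TSF cells (61.2%, exact 95% bounds 52.5 and 69.3%) but 6 of 29 CM cells (20.7%, bounds 7.99 and 39.7%). In the TSF libraries a and b of day 11 that cluster held 53.1% and 55.8% of cancer cells. In the CM library of day 11 it held 4 of 6 cancer cells (66.7%, bounds 22.3 and 95.7%). All 6 genes were among the 1000 variable genes the authors clustered on. The part of this difference in cluster make-up in the results below was not tested, because the table gives no values by cluster. All levels are means over every cancer cell of a library, and bounds in parentheses are the exact 95% interval of a share, for counting error only.

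The mean level was higher in the TSF library for 5 of the 6 genes and lower for Msln. Slpi differed most, followed by Wfdc2, Spp1, Lcn2 and Clu. The 6 genes together took 131 CP10k (1.31% of UMIs) in TSF cancer cells and 55.9 CP10k (0.559%) in CM cancer cells, a ratio of 2.35. At least 2-fold higher in TSF were 2 of the 6 genes, Slpi and Wfdc2, and none was 2-fold lower. Of the 10201 genes found in 10% or more of one library's cancer cells, 8.09% were at least 2-fold higher and 15.7% at least 2-fold lower. The median log2 ratio over those genes was -0.19. Relative to that median, 4 of the 6 genes were at least 2-fold higher (Spp1 and Lcn2 were added), with 10.8% of all genes higher and 11.4% lower. With 1.5-fold as the limit, 5 of the 6 genes were higher, against 16% of all genes, and 29.8% of all genes were lower. Nothing is read from these counts about the 6 genes, which were chosen on the same values.

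**Figure D1:**
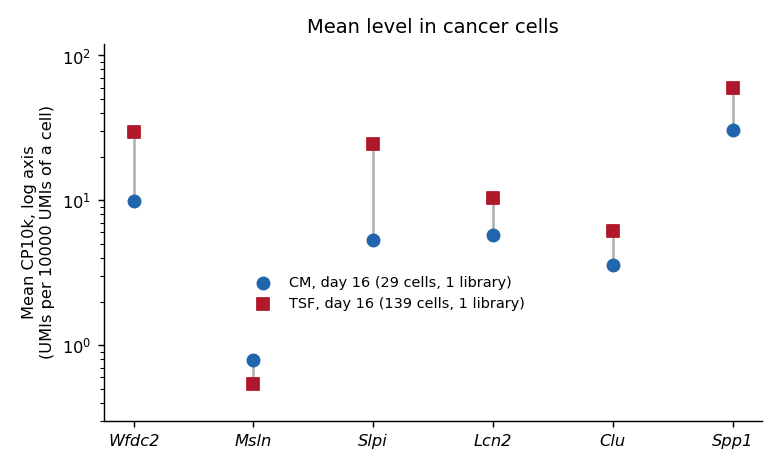
Mean level of each gene, in UMIs per 10000 UMIs of a cell on a log axis, over the 29 CM (circles) and 139 TSF (squares) cancer cells of day 16, with 1 library per group and so no error bar. Slpi (5.32 to 24.6) and Wfdc2 (9.84 to 29.6) have the longest gaps, and Msln is the 1 gene whose square lies below its circle.

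Among the WAP family proteins, Wfdc2 had 29.6 CP10k in TSF cancer cells and 9.84 CP10k in those of CM, a ratio of 3.01 (log2 1.59). It was seen in all 139 TSF cells (bounds 97.4 and 100%) against 28 of the 29 from CM (96.6%, bounds 82.2 and 99.9%). Nearly every cancer cell of both libraries thus held Wfdc2 transcripts, and the libraries differed in how many. In cells with a UMI of the gene, the mean level was 29.6 CP10k in TSF and 10.2 CP10k in CM.

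Slpi, the elastase inhibitor, had 24.6 CP10k in TSF cancer cells and 5.32 CP10k in those of CM, a ratio of 4.62 (log2 2.21). UMIs of it were found in 112 of the 139 TSF cells (80.6%, bounds 73.0 and 86.8%) against 16 of the 29 from CM (55.2%, bounds 35.7 and 73.6%), and these intervals overlap. In cells with a UMI the level was 30.5 CP10k in TSF and 9.65 CP10k in CM, a ratio of 3.16. Both the share and the level per cell with a UMI were thus higher in the TSF library, the share with overlapping intervals.

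Lcn2 had 10.4 CP10k in TSF cancer cells and 5.75 CP10k in those of CM, a ratio of 1.82 (log2 0.86). UMIs of it were found in 92 of the 139 TSF cells (66.2%, bounds 57.7 and 74.0%) against 10 of the 29 from CM (34.5%, bounds 17.9 and 54.3%), and these intervals lie apart. In cells with a UMI the order turned, with 15.8 CP10k in TSF and 16.7 CP10k in CM. The difference in the mean of Lcn2 was therefore one in the share of cells with a UMI, and the CM level rests on 10 cells.

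Clu, the extracellular chaperone, had 6.13 CP10k in TSF cancer cells and 3.56 CP10k in those of CM, a ratio of 1.72 (log2 0.78). UMIs of it were found in 132 of the 139 TSF cells (94.96%, bounds 89.9 and 98.0%) against 18 of the 29 from CM (62.1%, bounds 42.3 and 79.3%). These intervals lie apart. In cells with a UMI the level was 6.45 and 5.74 CP10k, a ratio of 1.12. By these values Clu also differed mainly in the share of cells with a UMI, with the level again not adjusted for depth.

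Spp1, the integrin ligand, had 59.8 CP10k in TSF cancer cells and 30.6 CP10k in those of CM, a ratio of 1.95 (log2 0.97). By mean UMI level, which counts transcript ends and is not divided by transcript length, it ranked 8 among all genes in TSF cancer cells and 38 in CM cancer cells. UMIs of it were found in 137 of the 139 TSF cells (98.6%, bounds 94.9 and 99.8%) against 24 of the 29 from CM (82.8%, bounds 64.2 and 94.2%). In cells with a UMI the level was 60.7 CP10k in TSF and 37.0 CP10k in CM.

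Msln, the anchored surface protein, had 0.535 CP10k in TSF cancer cells and 0.789 CP10k in those of CM, a ratio of 0.679 (log2 -0.56). UMIs of it were found in 73 of the 139 TSF cells (52.5%, bounds 43.9 and 61.0%) against 19 of the 29 from CM (65.5%, bounds 45.7 and 82.1%). These intervals overlap, and the difference in the share was not tested. Msln was thus a low gene with UMIs in most cancer cells of both libraries.

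**Figure D2:**
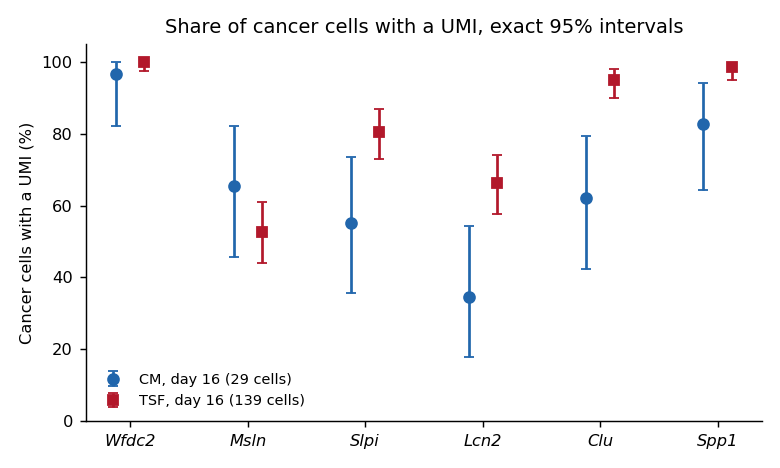
Percent of day 16 cancer cells with a UMI of each gene in the CM library (circles, 29 cells) and the TSF library (squares, 139 cells), with exact 95% binomial intervals. The intervals lie apart for Lcn2, Clu and Spp1 and overlap for Wfdc2, Msln and Slpi.

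The intervals of the shares lay apart for 3 of the 6 genes, all higher in TSF, a pattern shown by 1.14% of the 10201 genes in that direction and by 1.51% in the other. More of the CM cells were shallow, and a shallow cell can miss a gene. For cells of at least 10000 UMIs (125 in TSF, 21 in CM) the table gives no shares, but the numbers of shallow cells bound them. Whatever the shallow cells held, Lcn2 was seen in at least 62.4% of the deep TSF cells and at most 47.6% of the deep CM cells. For Clu the bounds were at least 94.4% and at most 85.7%, and for Slpi at least 78.4% and at most 76.2%. Among deep cells the share of these 3 genes was therefore higher in the TSF library, by at least 14.8, 8.69 and 2.21 percentage points, each without its counting error. For Wfdc2 (100% against 95.2 to 100%), Spp1 (at least 98.4% against at most 100%) and Msln (47.2 to 58.4% against 52.4 to 90.5%) the order among deep cells was not fixed by these bounds. Shares in a cell type that should lack these genes were not analysed here, since no matrix of single cells was used.

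**Figure D3:**
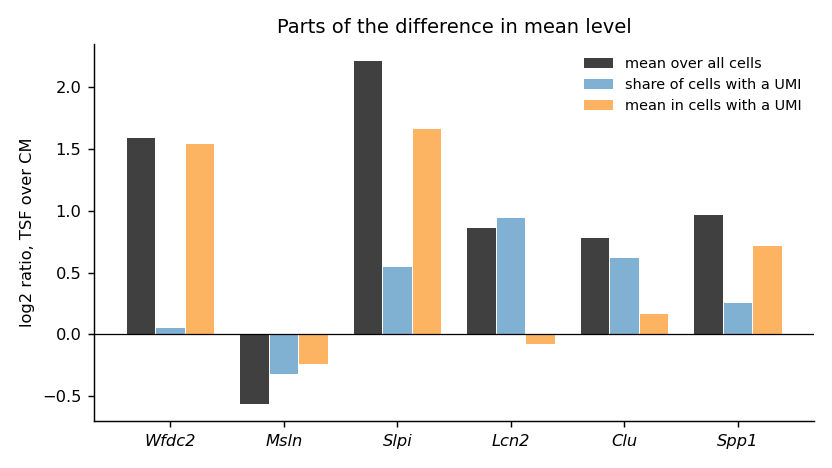
Log2 ratio of TSF over CM for the mean level over all cancer cells (dark bars), which equals the sum of the log2 ratio of the share of cells with a UMI (blue) and the log2 ratio of the mean level in those cells (orange). For Wfdc2 the level carries 1.54 of 1.59, whereas for Lcn2 the share gives 0.94 and the level -0.080. The share of Wfdc2 in CM was already 96.6%, which leaves little room for a share part.

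Split in this way, the log2 ratio of Wfdc2 was 0.051 from the share and 1.54 from the level in cells with a UMI. For Slpi these parts were 0.55 and 1.66, and for Spp1 0.25 and 0.71. For Clu they were 0.61 and 0.17, for Lcn2 0.94 and -0.080, and for Msln -0.32 and -0.24. By this split the level part was the larger for Wfdc2, Slpi and Spp1, and the share part for Clu and Lcn2. A share cannot pass 100%, and in CM it was already 96.6% for Wfdc2 and 82.8% for Spp1. Their share part was thus bound to be small. A higher level also gives a UMI to more cells, so the parts are not separate measures. The level part was not adjusted for depth.

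Among the 10201 genes, the log2 ratio of Slpi lay at percentile 97.9, that of Wfdc2 at 96.0, Spp1 at 91.5, Lcn2 at 89.9, Clu at 88.6 and Msln at 30.9. The 3 genes nearest to each in mean level in both libraries were taken by the Euclidean distance of the log2 levels. Nearest to Wfdc2 were Mif, a cytokine gene (24.3 and 11.8 CP10k in TSF and CM, distance 0.39), the metallothionein gene Mt1 (21.8 and 11.3 CP10k) and Rpl24. Nearest to Slpi was Wfdc2 itself, at a distance of 0.93, then Cox6c and Aldoa. Spp1 was nearest to the ribosomal protein genes Rpl37 (59.6 and 31.8 CP10k, distance 0.054), Rps24 and Rpl13. Lcn2 was nearest to Rpl36al (distance 0.11), Lars2 and Ran, and Clu to Cox6a1 (distance 0.061), Cp and Atp5j. Msln was nearest to Atp6v0d1 (distance 0.017), Loxl3 and Exosc1. With 2 libraries, many genes share such a pattern.

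**Figure D4:**
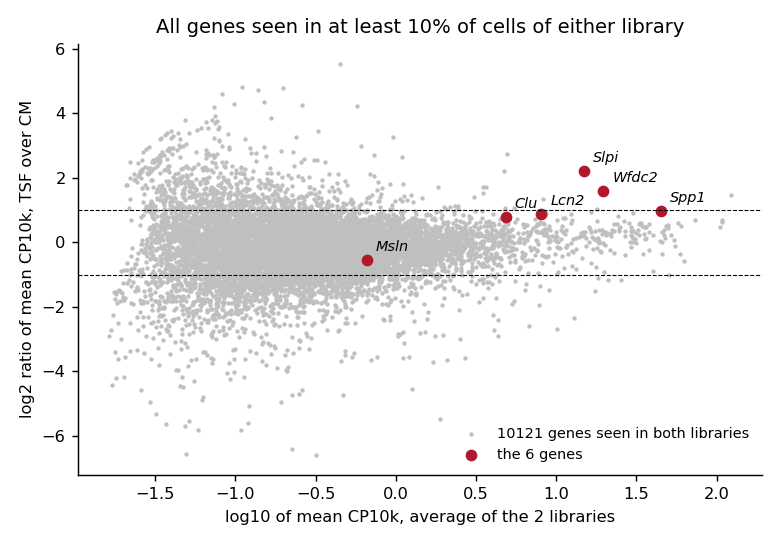
Log2 ratio of mean CP10k, TSF over CM, against the log10 of the mean level for the 10121 genes above 0 in both libraries (grey) and the 6 genes (red), with dashed lines at 2-fold. Slpi and Wfdc2 lie above the upper line at the high end of the levels, and Spp1, Lcn2 and Clu lie just under it.

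The neutrophil content of the lungs differed between the libraries, and Lcn2 and Slpi are also neutrophil products. Granulocytes were 29.1% of the annotated cells from TSF and 6.00% of those from CM. Within the cancer cells, 12 neutrophil markers summed to 1.47 CP10k in TSF and 0.243 CP10k in CM, after the authors' correction for ambient RNA. Of these, Ly6g, Mpo, Ngp, Camp, Ltf and Mmp8 were at 0 in both libraries. Cxcr2 was seen in 10 TSF cells, Csf3r in 7, S100a9 in 4 (0.685 CP10k), S100a8 in 2 (0.300 CP10k) and Retnlg in 2, and all 5 were at 0 in CM. Mmp9, the 1 marker seen in over 10% of cells, is a protease that carcinoma cells can also make, with 0.400 and 0.243 CP10k. Macrophage markers, relevant to Spp1, summed to 0.0367 and 0.0684 CP10k, and 9 of 11 were at 0 in both libraries, among them Adgre1, C1qa, Lyz2 and Csf1r. Mesothelial markers, relevant to Msln, summed to 0.00602 CP10k in TSF and were at 0 in CM, and airway and alveolar markers summed to 0.165 and 0.476 CP10k. For fibroblasts these sums were 1.07 and 0.498 CP10k, for endothelium 0.287 and 0.0588 CP10k, and for lymphocytes 0.0302 and 0.00958 CP10k. The part of ambient RNA and of its correction in the values of the 6 genes was not tested.

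Few other genes of the WAP and lipocalin lists were seen in cancer cells. Of all 23771 genes, 14735 had a UMI in a cancer cell of either library and 10201 were seen in at least 10% of cells. Of 22 WAP domain genes in the table, 15 had no UMI in either library, and Wfdc2 and Slpi were the 2 seen in at least 10% of cells. Of 11 lipocalin and orosomucoid genes in the table, Lcn2 alone was seen in that many cells, and 8 had no UMI. The genes between Slpi and Wfdc2 on chromosome 2 were looked at after the values were seen. Of these 8 genes, 4 were seen in at least 10% of cells and none of those 4 differed 2-fold. Of all genes counted in the same way, 8.09% were at least 2-fold higher and 15.7% lower, so nothing particular to the locus is read. Among those 4 genes the highest ratio was that of Sdc4, a syndecan, with 5.57 CP10k in TSF and 3.91 CP10k in CM.

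Of the SIBLING family besides Spp1, Ibsp (bone sialoprotein) and Dmp1 (dentin matrix protein) were in the table, and the mean of both was higher in TSF. Ibsp reached the 10% of cells needed to be counted through the TSF library alone. Of all genes counted in the same way, 8.09% were at least 2-fold higher in TSF and 15.7% lower, so nothing particular to the family is read from either gene. Dmp1 was found in 69 of the 139 TSF cells (49.6%, bounds 41.1 and 58.2%) against 6 of the 29 from CM (20.7%, bounds 7.99 and 39.7%), with 0.553 and 0.0937 CP10k. Ibsp was seen in 33 TSF cells (23.7%, bounds 16.9 and 31.7%) and 1 CM cell (3.45%, bounds 0.0873 and 17.8%). All 3 of these genes encode acidic integrin-binding proteins of mineralized tissue.

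Receptors and partners of the secreted proteins gave 1 higher, 1 lower and 7 neither among 9 genes seen in enough cells, beside 8.09% higher and 15.7% lower of all genes counted in the same way, with a median log2 ratio of 0.034 (-0.28 among genes in at least 25% of cells). Those 2 shares are also the ones to set beside the counts of the lists that follow, whose genes could enter through the library where they were high, and nothing particular to a list is read from them. The Spp1 receptor Cd44 had 1.95 CP10k in TSF and 3.12 CP10k in CM, and the integrin subunit Itgb1 had 4.11 and 6.24 CP10k. The subunit Itgb3 was seen in 18 TSF cells (12.9%, bounds 7.86 and 19.7%) and 1 CM cell (3.45%), and was the gene counted as higher, having reached 10% of cells through TSF alone. The gene counted as lower was Lrp8, a lipoprotein receptor that binds clusterin, with 0.0685 and 0.163 CP10k. Anxa2, an annexin that binds Slpi, had 15.7 and 12.9 CP10k. Grn, the progranulin gene whose product Slpi protects from cleavage, had 2.83 and 2.76 CP10k. Muc16, the binding partner of mesothelin, and the endocytic receptor Lrp2 had no UMI in any cancer cell. With none seen, 3 cells of the total, taken as a one-sided limit for counting error, still allow a UMI in up to 2.16% of the TSF cells and 10.3% of the CM cells, which does not limit the share that express the gene.

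Serine proteases and their inhibitors gave 1 higher, 1 lower and 7 neither among 9 genes, with a median log2 ratio of -0.067 that turned to 0.12 relative to the median gene. The neutrophil proteases that Slpi blocks, Elane and Ctsg, and their relative Prtn3 had no UMI. The surface protease gene St14 (matriptase) was seen in 64 TSF cells (46.0%, bounds 37.6 and 54.7%) and 3 CM cells (10.3%, bounds 2.19 and 27.4%), with 0.274 and 0.0550 CP10k. The genes of its inhibitors differed little, with 3.19 and 2.70 CP10k for Spint2 and 0.405 and 0.381 CP10k for Spint1. Prss22, a secreted tryptase-like protease, had 1.69 and 1.77 CP10k. Serpine2, a serpin that inhibits thrombin, was lower in TSF, with 0.117 and 0.764 CP10k.

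Among 25 other secreted carcinoma genes seen in enough cells, 4 were at least 2-fold higher, 2 at least 2-fold lower and 19 neither, with a median log2 ratio of 0.17. The higher ones were Csf3, the granulocyte growth factor (5.39 CP10k in TSF and 1.63 in CM), Igfbp7 (5.18 and 1.79 CP10k), and the chemokine genes Cxcl5 and Ccl2. Cxcl5 was seen in 23 TSF cells (16.5%) and Ccl2 in 17 (12.2%), each beside 1 CM cell, so both were counted through the TSF library alone. The lower ones were Plau, the urokinase gene (0.668 and 1.77 CP10k), and Tnc, the tenascin gene, which was seen in 16 TSF cells (11.5%) and 3 CM cells (10.3%). The most abundant of the list went the other way from Wfdc2 without passing 2-fold, with 13.2 and 22.2 CP10k for Igfbp4 and 12.9 and 20.1 CP10k for Fn1. Cst3 (7.70 and 5.29 CP10k) and Lgals3 (7.39 and 5.03 CP10k) were nearer to Clu in size.

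Of the 10 matrisome sets the authors deposited, Spp1 is in the set of matrix glycoproteins and Slpi in that of matrix regulators, and Wfdc2, Msln, Lcn2 and Clu are in none. The set of secreted factors had 77 genes seen in enough cells, of which 16 were higher and 15 lower, with a median log2 ratio of -0.18, next to -0.19 over all genes. The matrix regulators other than Slpi had 12 higher and 6 lower of 68, with a median of 0.078. The matrix glycoproteins other than Spp1 had 14 higher and 6 lower of 48, with a median of 0.35.

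**Figure D5:**
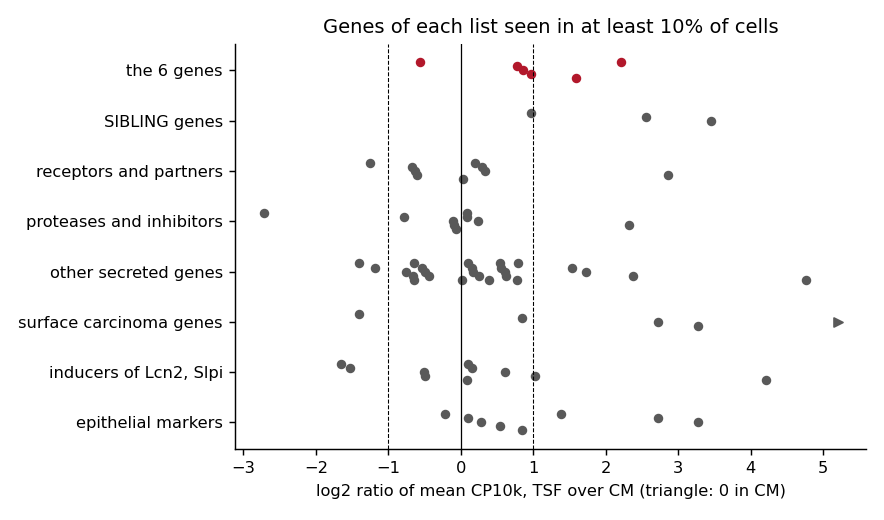
Log2 ratio of mean CP10k, TSF over CM, of each gene found in 10% or more of one library's cells, by list (1 point a gene, dashed lines at 2-fold, triangle for Cldn3, which is at 0 in CM). The 6 genes span -0.56 to 2.21, and receptors, proteases and other secreted genes lie on both sides of 0.

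Surface genes of carcinoma gave 3 higher, 1 lower and 1 neither among 5 genes, against 8.09% higher and 15.7% lower of all genes, with a median log2 ratio of 2.71 (0.85 among genes in at least 25% of cells). Epcam, an epithelial adhesion gene, had 1.28 CP10k in TSF and 0.195 CP10k in CM and was seen in 95 of 139 (68.3%, bounds 59.9 and 76.0%) and 8 of 29 cells (27.6%, bounds 12.7 and 47.2%). Cldn3 was counted through the TSF library alone. The claudin genes Cldn3 and Cldn4 were seen in 32 and 25 TSF cells and in none and 3 CM cells, where the same one-sided limit for none seen is 10.3%. The claudin gene Cldn7 had 0.415 and 0.231 CP10k. Cd24a, a mucin-like surface protein, was lower, with 0.967 and 2.57 CP10k, and was seen in 64.0% and 89.7% of cells. A list of 8 epithelial markers, which shares Epcam, Cldn4 and Cldn7 with these genes, summed to 31.4 and 31.0 CP10k and gave 3 higher and 5 neither. The third higher gene in it, the E-cadherin gene Cdh1, was found in 35 TSF cells (25.2%) and 2 CM cells (6.90%). It was thus counted through the TSF library alone.

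Factors known to induce Lcn2 or Slpi gave 2 higher, 2 lower and 6 neither among 10 genes, with a median log2 ratio of 0.093. Cebpd, which encodes a C/EBP factor, had 1.08 CP10k in TSF and 0.0584 CP10k in CM, and was seen in 53 of 139 (38.1%, bounds 30.03 and 46.7%) and 4 of 29 cells (13.8%, bounds 3.89 and 31.7%). Its more abundant relative Cebpb had 10.7 and 9.63 CP10k. Elf3, an epithelial ETS factor, was counted as higher through the TSF library alone and was seen in 2 CM cells. Rela, an NF-kB subunit, was lower, with 0.343 and 0.989 CP10k, and so was the estrogen receptor gene Esr1, with 0.0447 and 0.140 CP10k. The NF-kB cofactor Nfkbiz, which is needed for Lcn2 induction in other cells, had 1.22 and 1.72 CP10k. Stat3, a factor of interleukin signaling, had 0.865 and 1.23 CP10k. Whether the same cells held Cebpd, Lcn2 and Slpi was not analysed here, since the table gives means over cells.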

How the data were processed

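The authors made 5′ 10x Genomics libraries from dissociated lung, mapped reads with Cell Ranger to GRCm38.p6 plus the CD90.1 reporter, and subtracted ambient RNA from UMI counts with SoupX in a form that raised the estimated contamination. They used Seurat 4.1.0 and removed low-quality cells. Clusters of cell multiplets were removed from other cell types with the help of scDblFinder scores, but none from the cancer cells, which were recognised by CD90.1, and doublets among them were not tested here. The deposited gene table gives the mean CP10k, the count of cancer cells with a value above 0 and that number as a percent of the 139 TSF and 29 CM cells. Each CP10k column sums to 10000. UMI counts, percent of mitochondrial UMIs, cell class and cluster of each cell came from the deposited cell table, in which 2 libraries that are not among the samples used here were left out. Fold changes, p-values and enrichment scores of the authors' own comparison are also deposited, and were not used. Total UMIs of the day 16 libraries were 14735974 (CM) and 21451787 (TSF).

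Ratios are TSF over CM of mean CP10k with no pseudocount, over genes found in 10% or more of one library's cancer cells. Genes at 0 in 1 library (70 in CM, 10 in TSF) count as past any fold. Intervals are Clopper-Pearson at the 95% level, and for a gene found in no cell the limit is one-sided, 3 cells of the total. PCR duplicates are removed by UMIs, and intervals cover counting error only. With 1 library per group, no test was made. The code for calls was checked on simulated means with known folds and no added noise, which says nothing of error in the real means, and that for intervals on simulated shares. Promoters came from RefSeq windows and positions from GENCODE M21. The tools were matplotlib 3.10.9, scipy 1.17.1, pandas 2.3.3 and numpy 2.4.6 under Python 3.11.15. The 6 genes and the lists were chosen with earlier results of these data known. Named were the 6 genes, the up to 4 genes of highest mean and those past 2-fold in each list, the genes nearest in level, and other list members where a count is explained. Alternatives were other pseudocounts, totals, filters, folds and measures, and bounds on shares among cells of at least 10000 UMIs.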

Additional observations from a re-analysis of the deposited data

How the results depend on the processing

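No paired analysis was possible because each group compared has 1 library, and no library could be left out for the same reason. Values of single cells by depth or cluster were not analysed here, so neither could be held equal. The direction of all 6 log2 ratios was unchanged by pseudocounts of 1 and 0.1, by totals without ribosomal protein genes or without the 50 highest genes, and by centring on the median gene. Taken as the level per cell with a UMI, the log2 ratio of Lcn2 reversed to -0.080 and that of Clu was 0.17. Taken as the ratio of shares, it was 0.051 for Wfdc2, 0.55 for Slpi and 0.25 for Spp1. The number of the 6 genes at least 2-fold higher went from 2 to 5 with a limit of 1.5-fold and to 4 after centring. Of all genes, 16% were then higher and 29.8% lower at 1.5-fold, and at 2-fold 26.2% were higher with no filter and 5.04% when 25% of cells had to hold the gene. Under that stricter filter, the median of receptors and partners turned to -0.28, that of proteases and inhibitors to 0.16, and that of surface genes was 0.85. The median of proteases and inhibitors was also above 0 with no filter (0.084) and after centring (0.12).

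Bounds for cells of at least 10000 UMIs were added after seeing the data. The difference of shares in percentage points, TSF minus CM, could lie between -43.3 and 6.02 for Msln, 2.21 and 51.5 for Slpi, 14.8 and 64.1 for Lcn2, 8.69 and 52.4 for Clu, and -1.6 and 23.8 for Spp1.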
